A study of Mus musculus with 2 samples.

Results

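The genes described here are 9 genes of the phosphoinositide 3-kinase (PI3K) system: the regulatory subunits Pik3r1, Pik3r2, Pik3r3 and Pik3r5, the catalytic subunits Pik3cd and Pik3cg, the inhibitor Pik3ip1 and the lipid phosphatases Inpp5d and Inpp4b. They were taken by symbol from 19938 mouse genes measured by a transcript cluster with 1 gene symbol, and each of the 9 had 1 such cluster. The set was chosen by the log2 difference of Pik3r3 between these same arrays, on which it was among the genes most raised in the knockout, so the values below are a description with no test attached.

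RNA came from CD4 T cells of mouse spleen, obtained by flow sorting on CD4 and a high level of T cell receptor beta, with low surface CD44 to enrich naive cells. One sample was a Taf7 knockout (Taf7 -/-), from TAF7f/- mice with the Cre transgene 8EIII-cre, and 1 was a Taf7 heterozygote (Taf7 +/-) with the same floxed and null alleles but no Cre. Taf7 encodes a subunit of TFIID, the complex that binds core promoters. Both samples shared the null allele and a mixed C57/BL6 and 129 background, and a Cre-positive sample with intact Taf7 was not analysed here. The sources used here do not state the ages, the number of mice pooled or the cells in which the transgene acts. With 1 array per genotype no value has a replicate error, so no p-value can be given, and how precise a difference is rests on having a single array on each side.

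Class I PI3Ks phosphorylate a membrane lipid to make PIP3, which draws kinases such as Akt and the Tec family to the membrane after T cell receptor, costimulatory or chemokine signals. A catalytic subunit works with a regulatory subunit. Class IA catalytic subunits bind Pik3r1, Pik3r2 or Pik3r3 and mainly, though not only, follow tyrosine kinase signals. The class IB subunit Pik3cg binds Pik3r5 or Pik3r6 and mainly follows G protein signals. In T cells the delta catalytic subunit, from Pik3cd, is the main class IA form. SHIP1, from Inpp5d, removes a phosphate from PIP3, and the enzyme from Inpp4b acts on the product of SHIP1.

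On the deposited log2 scale, 6 of the 9 genes were higher in the knockout array and 3 lower. Pik3r3, chosen for being raised, is among the 6. Of 10457 genes above a filter on low values, 4280 were higher and 6177 lower, or 59.1% lower. The difference, knockout minus heterozygote, ran from -0.49 for Inpp4b to 0.79 for Pik3r3, and 6 of the 9 differed by less than 0.2 in either direction. Differences of that size were common, as the robust SD over all genes above the filter was 0.22. Pik3r3 was the single gene past 1.5-fold (a log2 difference of 0.58), and none was past 2-fold. Of the 10457 genes above the filter, 0.449% lay past 1.5-fold higher in the knockout array and 3.17% past 1.5-fold lower. Past 2-fold these shares were 0.0383% and 0.325%. As Pik3r3 was chosen for this contrast, its place in the background count is no finding. The median of the 9 differences was 0.04, and 0.03 without Pik3r3, beside -0.05 for all genes above the filter.

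**Figure D1:**
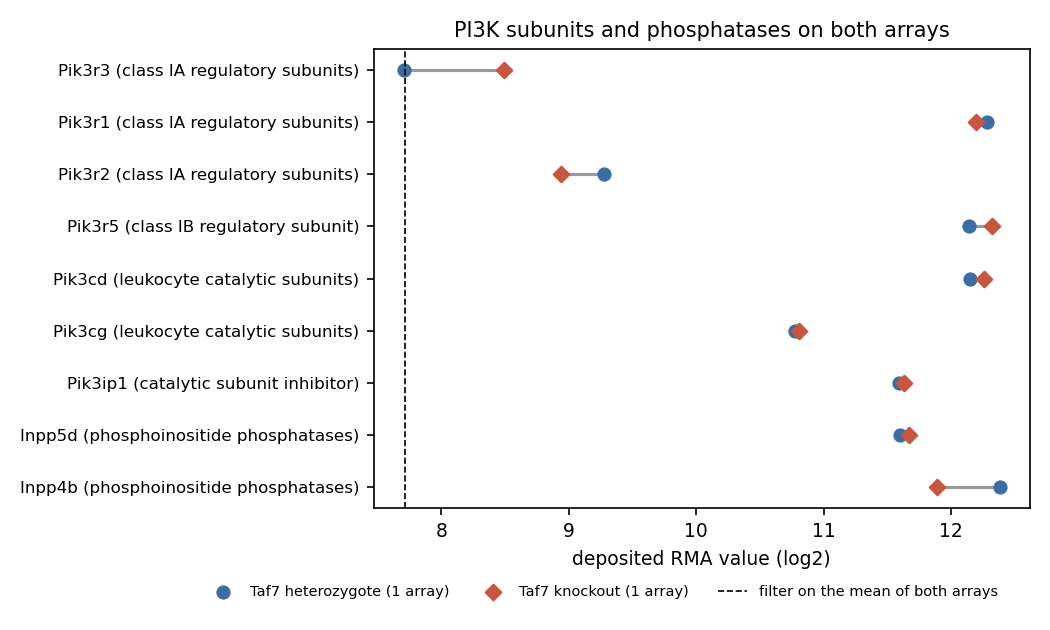
Deposited RMA values (log2, horizontal axis) of the 9 genes on the heterozygous array (circles) and the knockout array (diamonds), 1 array each, with a line joining the values of a gene; the dashed line marks the filter value of 7.71. Pik3r3 lies to the right in the knockout, Inpp4b and Pik3r2 to the left, and the symbols of the other 6 genes lie close together; positions of different genes are not comparable as levels.

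Among the class IA regulatory subunits, Pik3r3 was higher in the knockout, and Pik3r2 and Pik3r1 were lower. As Pik3r3 was chosen for being high, this unlikeness follows from the choice and is no finding. Pik3r3 encodes p55 gamma, a short regulatory subunit that keeps the SH2 domains but lacks the SH3 domain of the longer forms. Its log2 value was 7.70 in the heterozygote against 8.49 in the knockout, which is 0.79 or 1.73-fold higher. The heterozygous value lay just under the filter value of 7.71, and the gene passed on its mean of 8.10. It therefore entered the counts through the array in which it was high, and its fold rests on a low value in the other array. It was the only one of the 9 with a value under the filter, and the other 8 had both values above it.

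In the ranking by difference above the filter Pik3r3 stood at 12, between Ndrg1 at 0.794 and Zfp619 at 0.773. Weakly expressed genes scattered widely: of 2518 other genes with a mean within 0.5 of that of Pik3r3, the central 95% of differences ran from -0.67 to 0.47. Of these genes 3 were at least as high as Pik3r3. Since Pik3r3 was chosen for its high difference, that place follows from the choice and supports nothing. The 3 genes nearest to Pik3r3 in both log2 values, by Euclidean distance over the 2 arrays, were Gm1604a (7.73 and 8.48), 4930513N10Rik (7.74 and 8.41) and Mir375 (7.80 and 8.45). With 2 arrays such a likeness says only that both values are close.

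The Pik3r3 start region is shown because it is the gene of largest difference and TFIID acts at core promoters. The sequence is the 250 bases before the most upstream annotated start of Pik3r3 in RefSeq on assembly GRCm38.p6, plus strand, chr4:116221166-116221415, with CCAAT and GGGCGG matches on either strand in capitals:

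Pik3r3: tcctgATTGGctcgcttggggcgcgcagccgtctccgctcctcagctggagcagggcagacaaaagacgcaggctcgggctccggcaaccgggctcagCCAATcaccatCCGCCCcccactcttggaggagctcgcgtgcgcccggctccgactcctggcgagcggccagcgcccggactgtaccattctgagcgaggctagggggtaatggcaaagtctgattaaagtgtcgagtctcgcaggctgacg

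These bases held 2 CCAAT matches, 1 GGGCGG match (the GC box) and no TATAAA. Promoter windows of 300 bases, 250 before and 50 after a start, were in the RefSeq table for all 9 genes, 15 in total, and were searched on both strands; no motif contains another. TATAAA was in 1 of the 15, a Pik3r1 window, CCAAT in 4 and GGGCGG in 9. In all 32851 windows of that length the shares were 13.6%, 37.4% and 35.7%. Among genes higher in the knockout, GGGCGG was in every one of the 3 Pik3r3 windows, in 2 of 3 Pik3cd windows and in the Pik3r5 window. Among genes lower in the knockout, it was in the windows of Pik3r2 and Inpp4b and in 1 of 2 Pik3r1 windows. It was in none of those of Pik3cg, Pik3ip1 and Inpp5d. The start used in these cells was not measured.

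Pik3r2, which encodes p85 beta, was 9.27 in the heterozygote against 8.94 in the knockout on the log2 scale, a difference of -0.34 or 1.26-fold lower. Among 2327 other genes of similar mean this lay inside the central 95% range of -0.70 to 0.37, and 20.8% of them were at least as low. Pik3r1, which encodes p85 alpha and its shorter forms, was 12.29 and 12.20, a difference of -0.09. Relative to Pik3r1 on the same arrays, Pik3r3 was 1.84-fold higher in the knockout, and relative to Pik3r2 it was 2.19-fold higher. Both ratios carry the Pik3r3 difference on which the genes were chosen and its low heterozygous value, so they restate the 3 differences and are no evidence that the subunits changed unequally. Pik3r1 had 1 cluster, and which of its isoforms the probes cover is not stated.

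Among catalytic subunits, Pik3cd and Pik3cg were close to equal on the arrays. Pik3cd was 12.15 in the heterozygote against 12.26 in the knockout, a log2 difference of 0.11, and Pik3cg, the class IB catalytic subunit, was 10.78 and 10.81, a difference of 0.03. Pik3r5, which encodes the p101 partner of Pik3cg, was 12.14 and 12.32, a difference of 0.19 or 1.14-fold higher. All 3 lay inside the central 95% range of genes of similar mean, although Pik3r5 was nearer its edge, with 7.19% of 723 such genes at least as high.

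The catalytic subunits found in most cell types had lower values in the knockout: Pik3ca at -0.12 and Pik3cb at -0.38. Pik3cb was 9.33 in the heterozygote and 8.95 in the knockout, and was the lowest of the 8 other PI3K subunits listed. Relative to Pik3cb, Pik3cd was 1.41-fold higher in the knockout, and relative to Pik3ca 1.18-fold higher. Both ratios restate differences already given. Pik3r6, the alternative partner of Pik3cg, was at 0.16 from a low value of 7.66, close to the difference of Pik3r5. Pik3ca and Pik3r6 were named after their values were seen.

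Pik3ip1 encodes a transmembrane protein that restrains class I catalytic subunits and is abundant in resting T cells. It was 11.59 in the heterozygote against 11.63 in the knockout, a log2 difference of 0.04. Of 1296 other genes of similar mean, 81.1% differed at least as much in size, so the arrays show no difference for Pik3ip1 beyond the scatter of such genes.

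The phosphatases Inpp5d and Inpp4b differed from each other. Inpp5d was 11.60 in the heterozygote against 11.67 in the knockout, at a difference of 0.06, well inside the scatter of genes of similar mean. Inpp4b was 12.38 in the heterozygote against 11.89 in the knockout, at a difference of -0.49 or 1.41-fold lower. It did not reach 1.5-fold. Well-expressed genes scattered less, however, and the central 95% of 781 other genes of similar mean ran from -0.39 to 0.30. Inpp4b lay below that range, and 9 of these genes, 1.15%, were at least as low. Inpp4b is the lowest of the 9 genes described, which were chosen with earlier results of these data known. Its place among genes of similar mean is therefore a description and no finding.

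Relative to Inpp5d, Inpp4b was 1.47-fold lower in the knockout. The paralogs of both phosphatases, named after their values were seen, were Inpp4a at 0.10 and Inppl1, which encodes SHIP2, at 0.12. Relative to Inpp4a, Inpp4b was 1.51-fold lower. Both ratios restate differences already given and do not place Inpp4b itself past 1.5-fold.

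**Figure D2:**
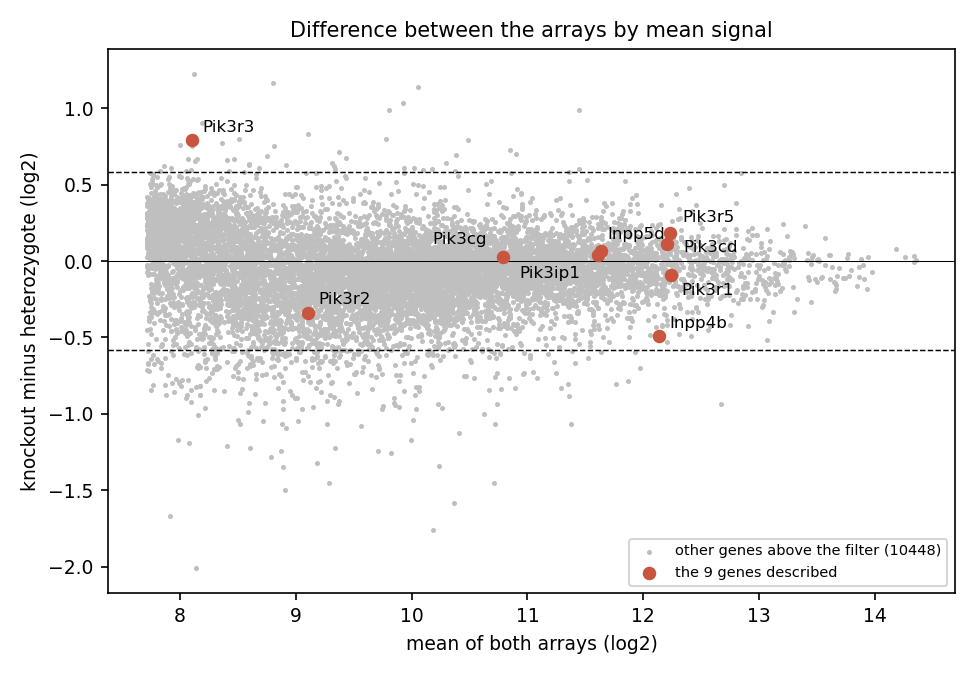
Difference between the arrays (knockout minus heterozygote, log2, vertical axis) against the mean of both arrays (log2, horizontal axis) for the 9 genes (red, labelled) and all other genes above the filter (grey); dashed lines mark 1.5-fold. Pik3r3 at 0.79 lies above the upper line at the weakly expressed end, and Inpp4b at -0.49 lies at the lower edge of the cloud at the well expressed end.

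The plot of differences under the alternative scalings shows how far each gene moved. Pik3r3 ranged from 0.70 to 0.84 and stayed past 1.5-fold, and Inpp4b ranged from -0.49 to -0.43 and stayed within it. The settings rescale the same 2 arrays, so they are no test of the difference for which Pik3r3 was chosen. Pik3r2 ranged from -0.34 to -0.22 and Pik3r5 from 0.19 to 0.26. The smaller differences moved by over 1.5 times: Pik3cd from 0.11 to 0.17, Pik3cg from 0.03 to 0.10, Pik3ip1 from 0.04 to 0.09, Inpp5d from 0.06 to 0.12 and Pik3r1 from -0.09 to -0.03. None of the 9 genes changed sign under these settings. Centring raised every difference by 0.05 and averaging moved none, so neither could turn a gene that was higher. Loess removal and quantile normalization raised every higher gene but Pik3r3, so no setting moved the small positive differences towards the opposite sign.

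**Figure D3:**
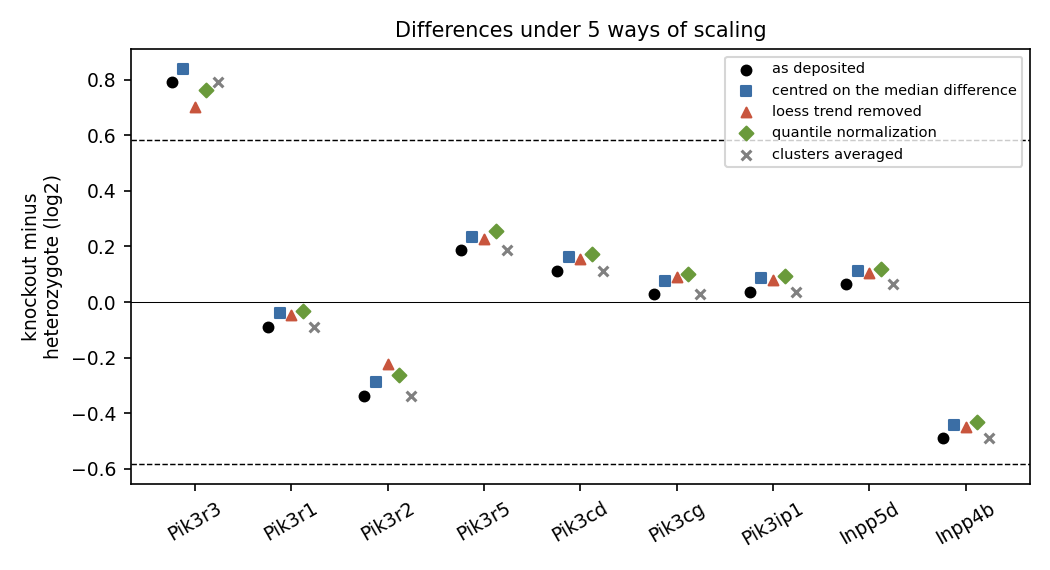
Difference of each of the 9 genes (knockout minus heterozygote, log2, vertical axis) as deposited and after centring, loess removal, quantile normalization or averaging of clusters (symbols); dashed lines mark 1.5-fold. The symbols of a gene stay on one side of 0, and those of Pik3r3 stay above the upper line.

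The wider pathway, in lists chosen with earlier results of these data known, held 110 measured genes, of which 98 passed the filter. Of these 98, 31 were higher and 67 lower in the knockout, or 68.4% lower, beside 59.1% of all genes above the filter. None was past 1.5-fold higher and 5 were past 1.5-fold lower, or 5.10%, beside 0.449% and 3.17% of all genes. The median difference was -0.07, beside -0.05 for all genes. Another 5 listed genes were not analysed here.

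Receptors and adaptors that recruit PI3K through phosphorylated tyrosine motifs held 3 of these 5 genes. Ctla4, an inhibitory receptor, was 2.82-fold lower, from 9.65 to 8.16. Trat1, a transmembrane adaptor of the T cell receptor, was 1.66-fold lower, from 11.34 to 10.61, and the costimulatory receptor Icos was 1.58-fold lower, from 10.84 to 10.18. Of the 9 genes of this list above the filter, 3 were higher, with Irs2, an adaptor of the insulin receptor, the highest at 0.25. The list median was -0.15 over these 9 and 0.03 over all 13 measured, so its sign turned with the weakly expressed genes. The mean over all 13 was -0.20.

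The other 2 genes past 1.5-fold were a phosphatase of phosphoinositides and a phosphatase of Akt. Inpp5f, which encodes a phosphoinositide phosphatase of endosomes, was 1.74-fold lower, from 9.70 to 8.90, the lowest of 22 other phosphoinositide phosphatases measured. The highest above the filter in that list was Mtmr14, a myotubularin-related phosphatase, at 0.15, and the median of the 19 above the filter was -0.03. Phlpp1, which encodes a phosphatase that removes phosphate from Akt, was 1.56-fold lower, from 8.54 to 7.89. Sgk1, a kinase related to Akt, was the highest of the Akt and mTOR genes at 0.50, from 9.76 to 10.26. The median of the 19 of those genes above the filter was -0.01. Tbc1d7, a subunit of the TSC complex, was at -0.85 but below the filter.

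In the remaining lists no gene above the filter reached 1.5-fold, and their medians are given over the genes above it. The 7 other PI3K subunits above it had a median of -0.09, with the class II kinase Pik3c2b the highest at 0.29. Phosphoinositide kinases had a median of -0.04 over 9 genes, from -0.34 for Pip4k2b to 0.07 for Pi4ka. Of 9 G protein beta and gamma subunits, which activate class IB PI3K, 1 was higher, Gng7 at 0.27. The other 8 were lower, with Gng2 at -0.53, beside 59.1% lower among all genes above the filter. The median of the 9 was -0.06, beside -0.05 for all genes above the filter. PIP3-binding effectors had a median of -0.07 over 17 genes, with Cyth3, a guanine nucleotide exchange factor of ARF GTPases, the lowest at -0.56 and Def6 the highest at 0.20. Foxo factors and their T cell targets, which Akt restrains, had a median of -0.10 over 9 genes, from -0.22 for the receptor Il7r to 0.11 for the quiescence factor Klf2.

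**Figure D4:**
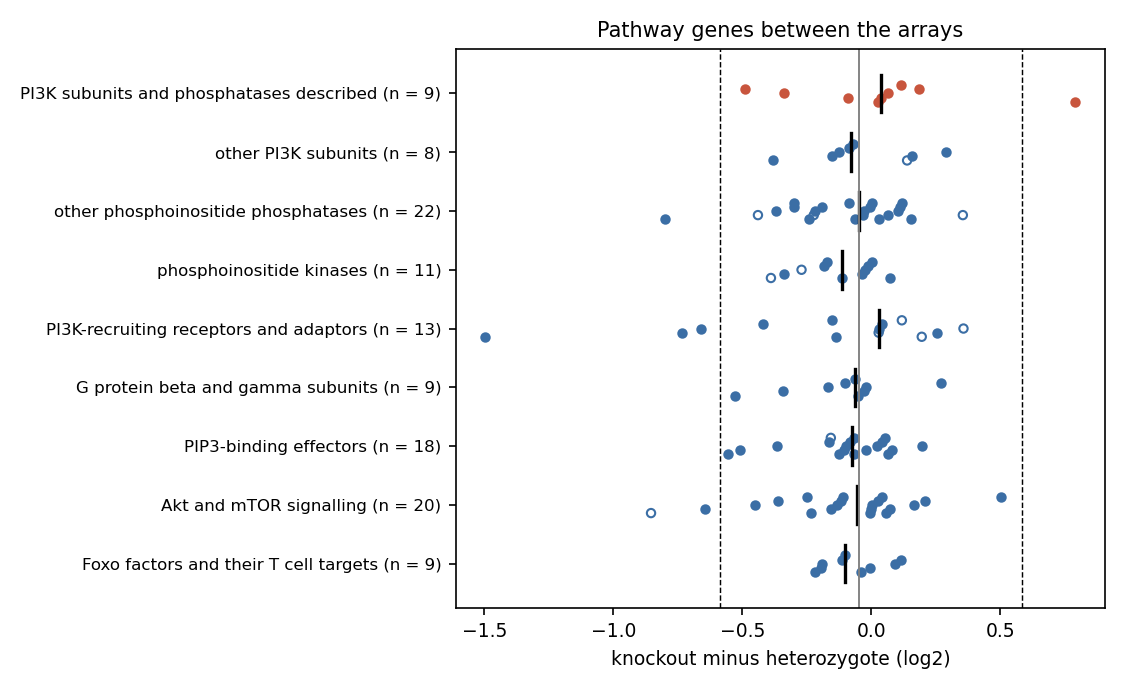
Difference between the arrays (knockout minus heterozygote, log2, horizontal axis) for the 9 genes described (red) and the genes of 8 pathway lists (blue; open circles are below the filter), with black bars for medians of all measured genes of a list, a grey line at the median of all genes above the filter and dashed lines at 1.5-fold. List medians lie between -0.11 and 0.04, and points past 1.5-fold occur to the left in the lists and, for Pik3r3, to the right.

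The deleted gene itself, Taf7, was 8.34 in the heterozygote against 7.79 in the knockout on the log2 scale, 1.46-fold lower, and the sources used here do not say whether its probes lie in the deleted part, so it checks the label only in part. As a check of the cell type, all 7 CD4 T cell markers measured were above the filter on both arrays, with Cd3e at 13.49 and 13.50 and Cd4 at 12.99 and 12.77. In the knockout 3 of the 7 were higher and 4 lower, with a mean of -0.24, Thy1 1.91-fold lower and Cd3d 1.42-fold lower. None of 8 myeloid markers passed the filter (Lyz2 6.49 and 6.54), but Itgam was at 7.83 and 7.04, 1.73-fold lower in the knockout from a heterozygous value above 7.71. Of 6 natural killer cell markers 1 passed, Prf1, which was at 10.22 and 9.72, while Ncr1 was at 5.79 and 5.78. Of 7 B cell markers measured 1 passed, Cd79b at -0.01. Their median difference was 0.24, beside 0.12 for all rows below the filter. All 4 erythroid markers measured were higher in the knockout, as were 12103 of all 19938 genes, above or below the filter. The median of the 4 markers was 0.23, and 1 passed the filter, Slc4a1 at 0.24. The part of these markers in the values of the 9 genes was not tested. Cd8a was 7.63 and 7.65, and Cd8b1 was 10.50 and 10.24.

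Markers of other CD4 T cell states differed between the arrays along with Pik3r3 and Inpp4b. All 8 regulatory T cell markers were lower in the knockout and 6 were lower by at least 1.5-fold. Of all genes above the filter, 59.1% were lower and 3.17% lower by at least 1.5-fold. The 8 markers had values from 8.75 to 11.90 in the heterozygote and from 7.08 to 11.16 in the knockout. Foxp3, the transcription factor of regulatory T cells, was 2.09-fold lower. Of 7 activation and memory markers 6 were lower, and Cd44, against which the cells were enriched, was 2.55-fold lower. The 1 that went the other way was Cd69, 1.35-fold higher. Of 4 naive T cell markers measured 3 were lower as well, with a median of -0.15. Ctla4 and Icos stand in these marker lists as well as in the PI3K-recruiting list. The 3 lower naive markers, Il7r, S1pr1 and Ccr7, also stand in the list of Foxo factors and their targets. The values of the naive and Foxo lists are therefore not separate observations. Il2ra stands in both the regulatory T cell list and the activation and memory list. The part of these cell states in the values of Pik3r3, Inpp4b and the recruiting receptors was not tested. In bulk RNA, fewer cells of a type and less RNA per cell cannot be told apart.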

How the data were processed

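The authors deposited log2 gene-level signals of 2 arrays, made by RMA in Affymetrix Expression Console version 1.1 with the core gene set, per the submitters' processing notes and the design text. The design text names an exon array and the probe table describes a gene-level array; this was not settled. Probe positions and a genome build are not stated in the sources used here.

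Of 35556 rows, 21789 had 1 gene symbol, 1621 several and 12146 none. For each gene the cluster of highest mean was used, and genes entered counts if their mean reached the 50th percentile over rows (7.71). Differences are knockout minus heterozygote, with no further normalization. Genes of similar mean are those above the filter within 0.5. All gene identifiers of the 9 genes were in the RefSeq table.

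The members and lists were chosen with earlier results of these data known. Named are all members, Taf7, the neighbours of Pik3r3 and defining markers. In each pathway list the highest and lowest gene above the filter and those past 1.5-fold are named. Prf1, Cd79b, Cd8b1, Thy1, Cd3d, Itgam, Slc4a1, Il2ra, Cd69, S1pr1, Ccr7 and Tbc1d7 were added after their values were seen. Alternatives were centring, removal of a loess trend (span 0.3), quantile normalization, averaging of clusters, other filters (none, or the 25th or 75th percentile), and for lists the mean or filtered genes alone. The procedure was tested on simulated data with changes planted in well-expressed genes and with less scatter than in these arrays. That test does not cover weakly expressed genes such as Pik3r3. The work used pandas 2.3.3 and numpy 2.4.6 under Python 3.11.15, with statsmodels 0.14.6 for loess and matplotlib 3.10.9 for plots.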

Additional observations from a re-analysis of the deposited data

How the results depend on the processing

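Each of the 9 genes kept its direction under centring, loess removal, quantile normalization and averaging of clusters. Averaging could not move them, since each has 1 cluster. Centring raised every difference by 0.05, so it could not turn the 6 genes that were higher. Loess removal and quantile normalization also raised all of these 6 but Pik3r3, so the kept direction of the small positive differences was not challenged. Pik3r3 lay between 0.70 and 0.84, past 1.5-fold under each of these settings, but at rank 27 after loess removal and 18 after quantile normalization. Since Pik3r3 was chosen for this difference on the same arrays, its keeping past 1.5-fold supports nothing. Each of the 9 genes moved from its deposited difference by less than 1 robust SD of the differences of genes of similar mean. The settings moved the median of all genes by at most 0.06, a shift close in size to the differences of Pik3cg, Pik3ip1, Inpp5d and Pik3r1. Past 1.5-fold higher there were 47 genes, against 71 after centring, 91 with no filter and 16 with the filter at the 75th percentile, where 105 were lower against 332, and centring and quantile normalization each gave 246 lower; centring adds a constant, and filters change how many genes are counted. List medians near 0 turned sign in 9 of 48 cases, over 4 of 8 pathway lists: the PI3K-recruiting list (0.03) was at -0.08 after loess removal and -0.06 after quantile normalization, other phosphatases (-0.05) at 0.03 and other PI3K subunits (-0.08) at 0.02 after quantile normalization. The signs of these medians therefore depend on the scaling. No paired analysis was possible because there is a single array on each side, and none could be left out.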
